A study of Mus musculus with 46 samples.

Results

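Stem and progenitor cells of the mammary gland are often marked by the genes Prom1, Aldh1a1, Cd24a, Cd44, Kit, Cd14 and Tspan8. These 7 markers, of 9329 genes tested, were followed across mouse mammary tumors and normal gland. They were chosen by symbol, and each was read from the probe set with the highest mean over the 46 arrays, a probe set being a group of oligonucleotides on the array that target the same transcript. All 7 passed the filter on low values, which asked for a log2 value over 4 in at least 3 arrays. All 41 tumors and 5 glands came from female mice, 1 array was run for each, and ages of the mice were not in the labels. C3TAg tumors (n = 5) carried the SV40 T antigens under the C3(1) promoter. The p53-/- tumors (n = 7, Balb/C strain) arose in transplanted gland in which MMTV-cre had removed floxed p53. In Brca1-/-p53+/- tumors (n = 5, 129B6/FVB strain) MMTV-cre had removed floxed Brca1 in mice that lacked an allele of p53. These 3 models are called basal-type (17 tumors). The luminal-type models (24 tumors, FVB strain like C3TAg and the normal gland) expressed an oncogene from the MMTV long terminal repeat, a promoter that is also active in lymphoid and salivary tissue. They were MMTV-Hras (n = 5), MMTV-H2N with Her2/neu (n = 5), MMTV-C-Myc (n = 4), MMTV-PymT with polyoma middle T (n = 6) and MMTV-Wnt (n = 4). FVB pregnant glands (n = 5), which are normal glands of late pregnancy, were the only control, so the same 5 glands stand in all comparisons with normal tissue.

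The mammary epithelium has an inner luminal layer, which holds milk-producing and hormone-sensing cells and their progenitors, and an outer basal or myoepithelial layer. Antibodies against CD24 and CD44 are used to sort these layers and to enrich tumor-initiating cells, and aldehyde dehydrogenase activity is read as a sign of stem or progenitor state. Kit and CD14 are surface receptors used to pick out luminal progenitors, prominin-1 is found on luminal cells of the mouse gland, and tetraspanin 8 has been used to divide basal cells with stem-like behaviour. None of the 7 is restricted to the epithelium. CD44 and CD14 are abundant on immune cells, and Kit is also carried by mast cells.

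Levels below are log2 values, on which the background of this array lies at about 2, and a difference of 1 is a doubling. Adjusted p values are limma values after Benjamini-Hochberg correction over all 9329 genes, with 0.05 as the threshold of a call. Of the 41 tumor arrays 4 stood apart from the rest. Epcam, which encodes an epithelial adhesion molecule, was at 5.28 in Brca1-/-p53+/- 3, at 2.99 in Brca1-/-p53+/- 4 and at 3.60 in MMTV-Wnt 3, against at least 10.5 in every other tumor. Adipoq, which encodes the fat cell hormone adiponectin, was at 14.2 in Brca1-/-p53+/- 2, against at most 11.8 in the other tumors and 13.2 to 14.4 in normal glands. Results that rest on these arrays are given with and without them. In tissue RNA, fewer cells of a type and less RNA per cell cannot be told apart.

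Relative to normal gland, Cd44 and Prom1 were higher in tumors, Aldh1a1 and Cd24a were lower, and Kit, Cd14 and Tspan8 were not called. This comparison weighted the 8 models equally. Thus 4 of 7 markers were called, where 41.3% of all genes were (24.2% higher and 17.1% lower), and the median difference of the 7 was 1.55 against 0.20 over all genes. Among single models, 30 of the 56 marker and model pairs were called, against a background of 34.8% over all genes. Called markers numbered 6 of 7 in MMTV-Hras (background 28.1%), 5 in C3TAg (48%) and MMTV-H2N (35.1%), 4 in MMTV-PymT (32.6%), 3 in p53-/- (42.7%) and Brca1-/-p53+/- (32.1%), and 2 in MMTV-C-Myc (31.7%) and MMTV-Wnt (27.8%).

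**Figure D1:**
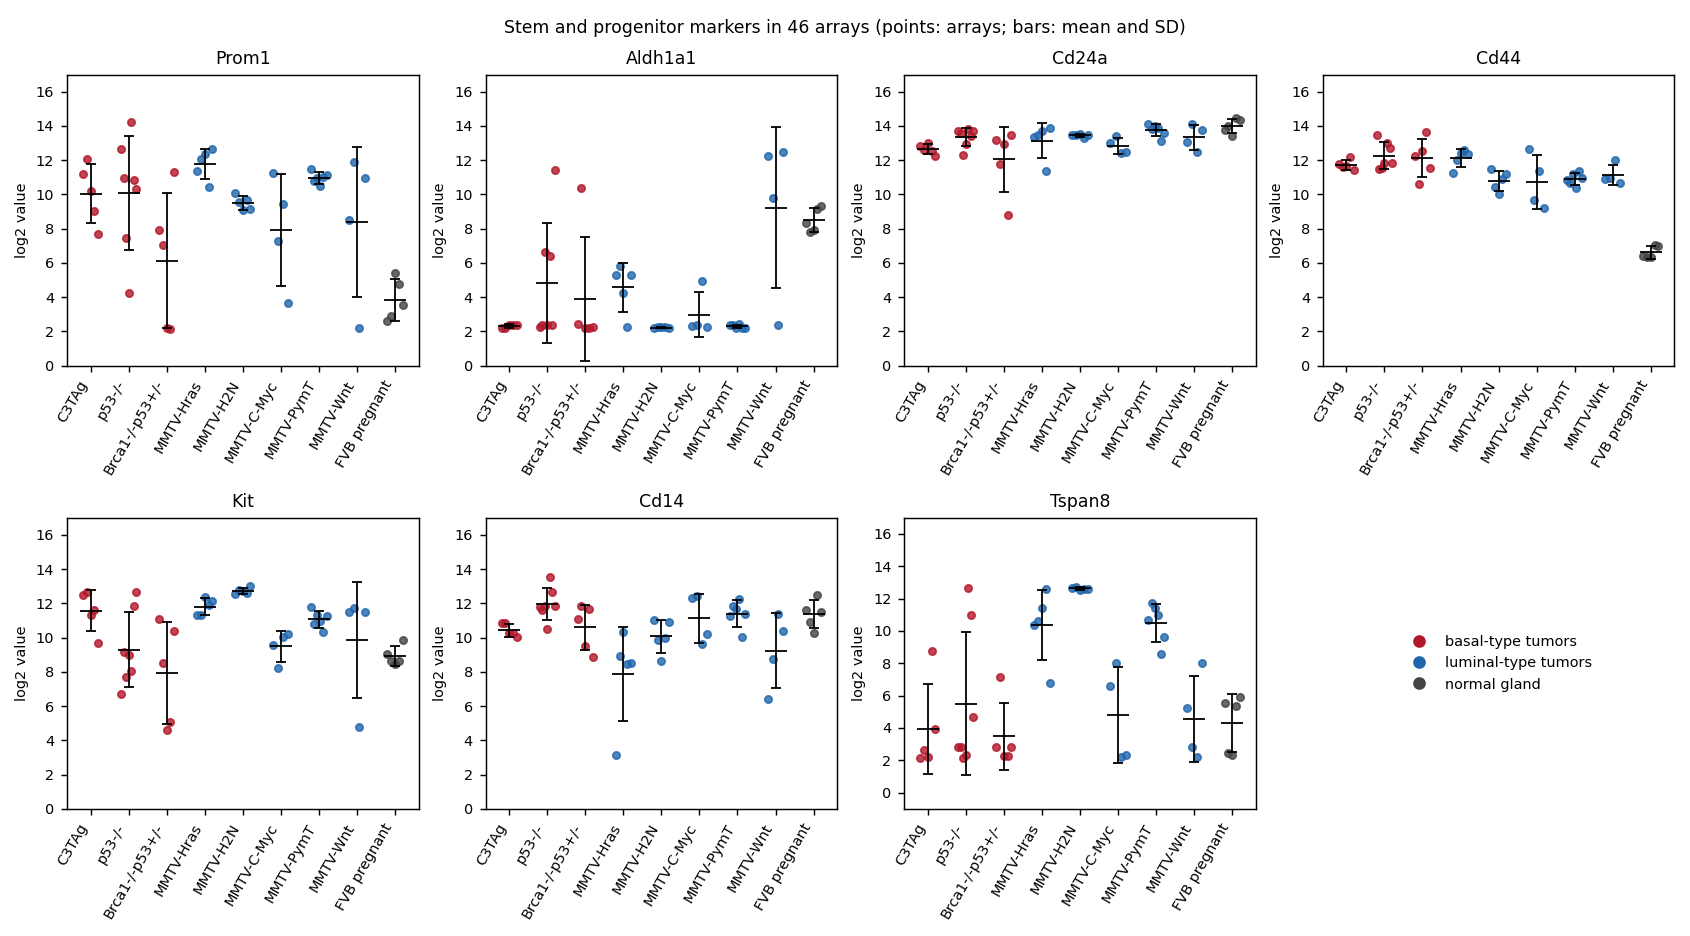
Log2 value (vertical axis) of the 7 markers in each of the 46 arrays by group (horizontal axis), a point standing for an array and a bar for mean and SD; basal-type models are red, luminal-type models blue and normal gland grey. Cd44 lay between 6.33 and 7.04 in the glands and between 9.20 and 13.65 in tumors, while Prom1, Aldh1a1 and Tspan8 spread from the array's background to over 12 within single models.

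Prom1 encodes prominin-1, a cholesterol-binding glycoprotein of membrane protrusions. It stood at 2.58, 2.89, 5.40, 4.75 and 3.51 in the 5 normal glands and was above all of them in 36 of 41 tumors. MMTV-Hras tumors had the highest mean (11.76 ± 0.87, SD, n = 5), with 11.38, 12.04, 12.33, 10.44 and 12.62. MMTV-PymT tumors lay close together, from 10.46 to 11.46 with a median of 10.99 (n = 6). In both models every tumor was at least 5 log2 units above the highest gland.

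In other models Prom1 ran from the array's background to high values. Tumors of p53-/- ranged from 4.24 to 14.25 with a median of 10.82 (n = 7). MMTV-Wnt tumors measured 8.49, 11.87, 2.19 and 10.95, and MMTV-C-Myc tumors 11.26, 7.28, 9.44 and 3.64. The low tumors of these models fell within or below the normal glands, and the others lay above them. In Brca1-/-p53+/- tumors Prom1 was 7.91, 7.06, 2.17, 2.15 and 11.29. The tumors at 2.17 and 2.15 are those of low Epcam, and the MMTV-Wnt tumor at 2.19 is the third array of low Epcam.

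Over the 8 models Prom1 was higher than in normal gland (log2 difference 5.52, SE 1.16, adjusted p = 0.000189). It was called higher in 6 models, by 7.94 in MMTV-Hras (adjusted p = 0.000158), 7.15 in MMTV-PymT, 6.27 in p53-/-, 6.22 in C3TAg, 5.69 in MMTV-H2N and 4.55 in MMTV-Wnt (adjusted p = 0.0344). In MMTV-Hras, MMTV-PymT, C3TAg and MMTV-H2N no tumor overlapped the glands, where 18.8%, 25.9%, 46.1% and 41% of all genes had no overlap in either direction. The MMTV-Wnt call was lost when MMTV-Wnt 1, 2 or 4 or normal gland 1, 2 or 5 was left out, with differences from 3.39 to 6.61 over all arrays left out and an adjusted p of up to 0.157. MMTV-C-Myc (4.08, adjusted p = 0.0537) and Brca1-/-p53+/- (2.29, 95% interval -0.84 to 5.43, adjusted p = 0.265) were not called. Of the Brca1-/-p53+/- tumors, 3 lay above all glands and 2, those of low Epcam, below all of them.

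Salivary gland genes had their highest summed median in MMTV-Hras (16.7), the model of highest mean Prom1. Normal gland, with a median of 11.4, had the lowest mean Prom1 (3.82). The summed level of 7 measured salivary genes, of 8 listed, was 10.7 to 17.1 in MMTV-Hras, 8.49 to 16.8 in MMTV-PymT, 9.75 to 11.5 in normal gland and 5.06 to 7.85 in p53-/- tumors. It was 5.07 to 15.4 in MMTV-Wnt, 7.51 to 13.7 in MMTV-H2N and 5.19 to 13.4 in Brca1-/-p53+/-. MMTV-C-Myc had 5.57 to 12.4 and C3TAg 5.17 to 5.87. The MMTV-Hras tumor with the lowest salivary level, MMTV-Hras 4, also had the lowest Prom1 of its group (10.44). Of these genes Bpifa2, a salivary secretory protein gene, was at background in C3TAg and p53-/- tumors (2.08 to 2.17), in which Prom1 was called higher as well. The part of salivary tissue in the MMTV-Hras value was not tested.

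Aldh1a1 encodes a cytosolic retinaldehyde dehydrogenase, one of the enzymes behind aldehyde dehydrogenase activity in cell sorting. It ran opposite to Prom1 in the comparison with normal gland. The 5 glands measured 8.32, 7.82, 7.91, 9.15 and 9.32. In C3TAg tumors it was at background (2.20, 2.20, 2.38, 2.36 and 2.39), as in MMTV-H2N (2.19 to 2.23, n = 5) and MMTV-PymT (2.20 to 2.40, median 2.29, n = 6). In these 3 models every tumor lay below every gland.

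A few tumors of other models had Aldh1a1 at or above the level of the glands. MMTV-Wnt tumors were at 12.23, 9.81, 2.39 and 12.46, so that 3 of 4 were above all glands and MMTV-Wnt 3, of low Epcam, was at background. Those of p53-/- measured 2.24, 2.35, 6.63, 2.38, 6.41, 2.38 and 11.41, and Brca1-/-p53+/- tumors 2.42, 10.38, 2.16, 2.17 and 2.26. The tumors at 11.41 and 10.38 were the only ones of these models above the glands. The tumor at 10.38 is Brca1-/-p53+/- 2, of high Adipoq. MMTV-Hras tumors held intermediate levels (5.27, 5.82, 4.21, 2.25 and 5.28), and MMTV-C-Myc tumors were at 2.28, 2.39, 4.94 and 2.23, all below the glands.

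Over the 8 models Aldh1a1 was 22.2-fold lower than in normal gland (log2 difference -4.47, SE 1.09, adjusted p = 0.000977), with 36 of 41 tumors below every gland and 5 above every gland. Since the low values are at background, the fold is set by that floor. It was called lower in 7 models, from -6.29 in MMTV-H2N (adjusted p = 0.000765) to -3.68 in p53-/- (adjusted p = 0.0246). In MMTV-Wnt it was 0.72 higher (95% interval -2.39 to 3.82, adjusted p = 0.780), and 3.00 higher without the tumors of low Epcam. The call in MMTV-Hras (-3.94, adjusted p = 0.0376) was lost without MMTV-Hras 3 or 4 or normal gland 1, 3, 4 or 5 (adjusted p up to 0.103). The call in p53-/- was lost without p53-/- 1, 2, 4 or 6 or normal gland 4 or 5 (adjusted p up to 0.0566). In Brca1-/-p53+/- (-4.63, adjusted p = 0.0129) the call was lost once the tumors of low Epcam were left out (-3.49, adjusted p = 0.0725). It held when any single array was left out (adjusted p up to 0.0408). Without Brca1-/-p53+/- 2, the tumor with Aldh1a1 at 10.38, the difference was -6.25.

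Set against the other 7 models, MMTV-Wnt had 61.0-fold more Aldh1a1 (log2 difference 5.93, SE 1.21, adjusted p = 0.00164), the only marker of 7 called in that model (background 6.32%). The difference was 8.21 without MMTV-Wnt 3 and at least 4.85 without any other array. Fat cell genes were high in the normal glands, where Aldh1a1 was high too, with a summed level of 16.1 to 16.7 over 5 measured genes of 7 listed. In Brca1-/-p53+/- 2 the sum was 16.5. In MMTV-Wnt it was 6.83 to 10.5, and Adipoq was at 2.06 to 5.18. In p53-/- 7, the tumor with Aldh1a1 at 11.41, Adipoq was at 2.68. The part of fat cells in the Aldh1a1 values was not tested.

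**Figure D2:**
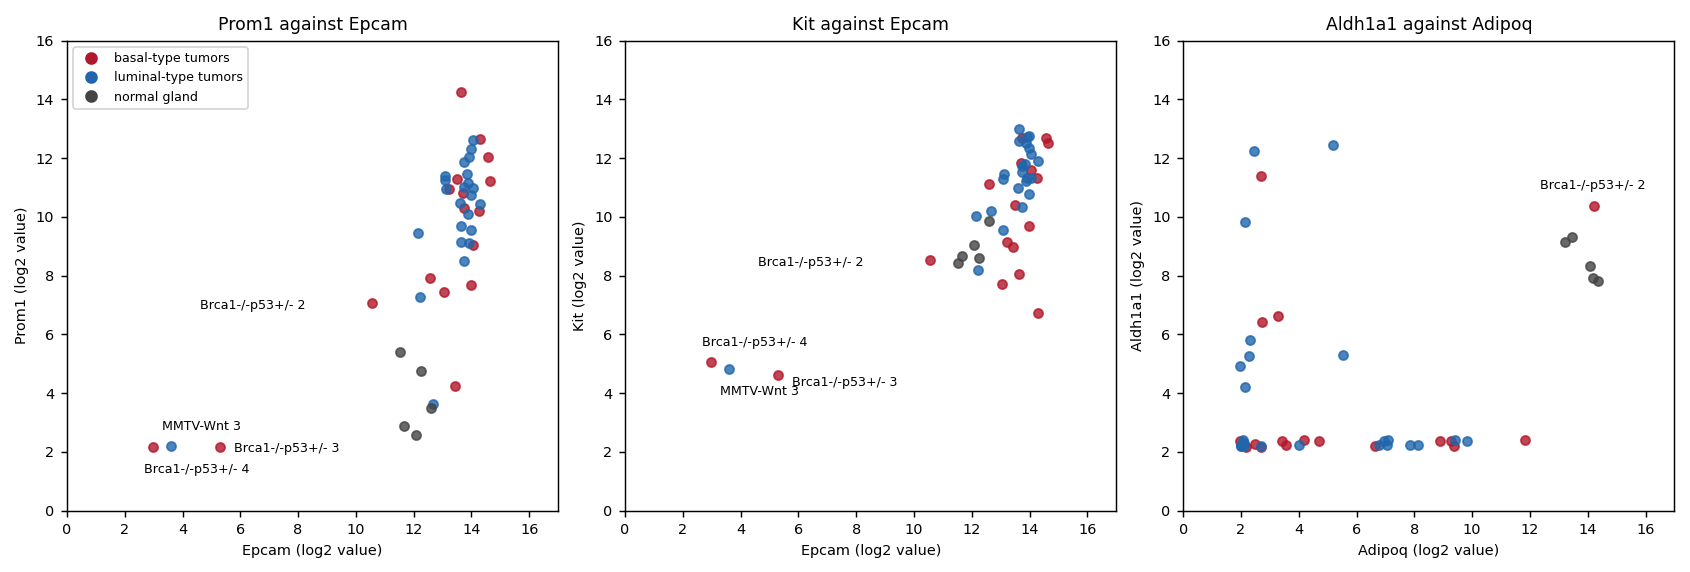
Log2 value of Prom1 and Kit against Epcam and of Aldh1a1 against Adipoq, with 1 point for each of the 46 arrays coloured by class. Prom1 and Kit were low in the arrays of low Epcam, and Aldh1a1 was high in the 5 glands and Brca1-/-p53+/- 2, in which Adipoq was 13.2 to 14.4, and also in 3 MMTV-Wnt tumors and p53-/- 7, in which Adipoq was at most 5.18.

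Cd24a encodes a glycosylphosphatidylinositol-anchored surface glycoprotein, and luminal cells carry more of it than basal cells. It was among the brightest transcripts on the arrays, with a mean of 13.2 over the 46 arrays, higher than that of 98.9% of genes. Normal glands measured 13.78, 14.00, 13.42, 14.43 and 14.33 and had the highest mean of the 9 groups. C3TAg tumors were at 12.83, 12.58, 12.98, 12.52 and 12.24, all below the glands. Brca1-/-p53+/- tumors were at 13.19, 11.79, 12.97, 8.82 and 13.44, and the lowest of them, the tumor at 8.82, also had the lowest Epcam of all arrays.

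The fall of Cd24a in tumors was small (log2 difference -0.92, SE 0.38, adjusted p = 0.0478), and 21 of 41 tumors lay below all glands. The call was lost when any 1 of 26 arrays was left out, with differences between -1.07 and -0.81 and an adjusted p of up to 0.131. It was called lower in Brca1-/-p53+/- (-1.95, adjusted p = 0.00311) and in C3TAg (-1.36, adjusted p = 0.0250). Without Brca1-/-p53+/- 4 the first was -1.14. It was -0.68 (adjusted p = 0.291) without the 4 arrays that stood apart. The C3TAg call was lost without C3TAg 5 or normal gland 4 or 5 (adjusted p up to 0.0568). The other 6 models differed by -0.24 to -1.17 and were not called.

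Cd44 encodes the receptor for hyaluronan, a sugar polymer of the matrix. It separated all tumors from all glands. Normal glands measured 6.38, 6.33, 6.33, 7.04 and 6.99. The lowest tumors were MMTV-C-Myc 4 at 9.20 and MMTV-C-Myc 2 at 9.69, and the highest was Brca1-/-p53+/- 4 at 13.65. In p53-/- the range was from 11.49 to 13.48 with a median of 11.83 (n = 7), and MMTV-PymT tumors from 10.36 to 11.35 with a median of 10.90 (n = 6). No tumor of any model came within 2 log2 units of a gland.

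Over the 8 models Cd44 was 29.1-fold higher than in normal gland (log2 difference 4.86, SE 0.36, adjusted p = 6.67e-14). It was called in all 8 models, from 4.12 in MMTV-C-Myc (adjusted p = 8.65e-08) to 5.65 in p53-/- (adjusted p = 5.03e-13), with no overlap of arrays in any of them. The background of genes with no overlap ran from 12.5% in Brca1-/-p53+/- to 46.1% in C3TAg. Among tumors, p53-/- exceeded the other 7 models by 0.90 (adjusted p = 0.0420, background 16.3%), and this call was lost when any 1 of 7 arrays was left out, with a difference as low as 0.70 (adjusted p up to 0.162). Those 7 were p53-/- 1, 5 and 6, MMTV-H2N 2 and 3, MMTV-C-Myc 2 and MMTV-Wnt 4.

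Macrophages carry CD44, and 6 of 12 macrophage genes were higher and 0 lower in tumors than in normal gland, among them Cd68 (2.90, adjusted p = 0.000220) and the Fc receptor gene Fcgr1 (2.63, adjusted p = 0.00484). The summed level of the 12 was 12.8 to 13.5 in normal gland. It overlapped that range in MMTV-H2N (12.7 to 13.7), where Cd44 was 10.04 to 11.49, and in part in p53-/-, Brca1-/-p53+/-, MMTV-Hras and MMTV-PymT, and lay above it in C3TAg, MMTV-C-Myc and MMTV-Wnt. None of the 12 was called higher in MMTV-H2N than in the other models and 4 were lower. Fibroblast and matrix genes, summed over 10, were at 15.0 to 15.4 in normal gland and lower in MMTV-Hras (11.2 to 13.8), where Cd44 was 11.25 to 12.60. The part of immune and stromal cells in the Cd44 values was not tested in any model.

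**Figure D3:**
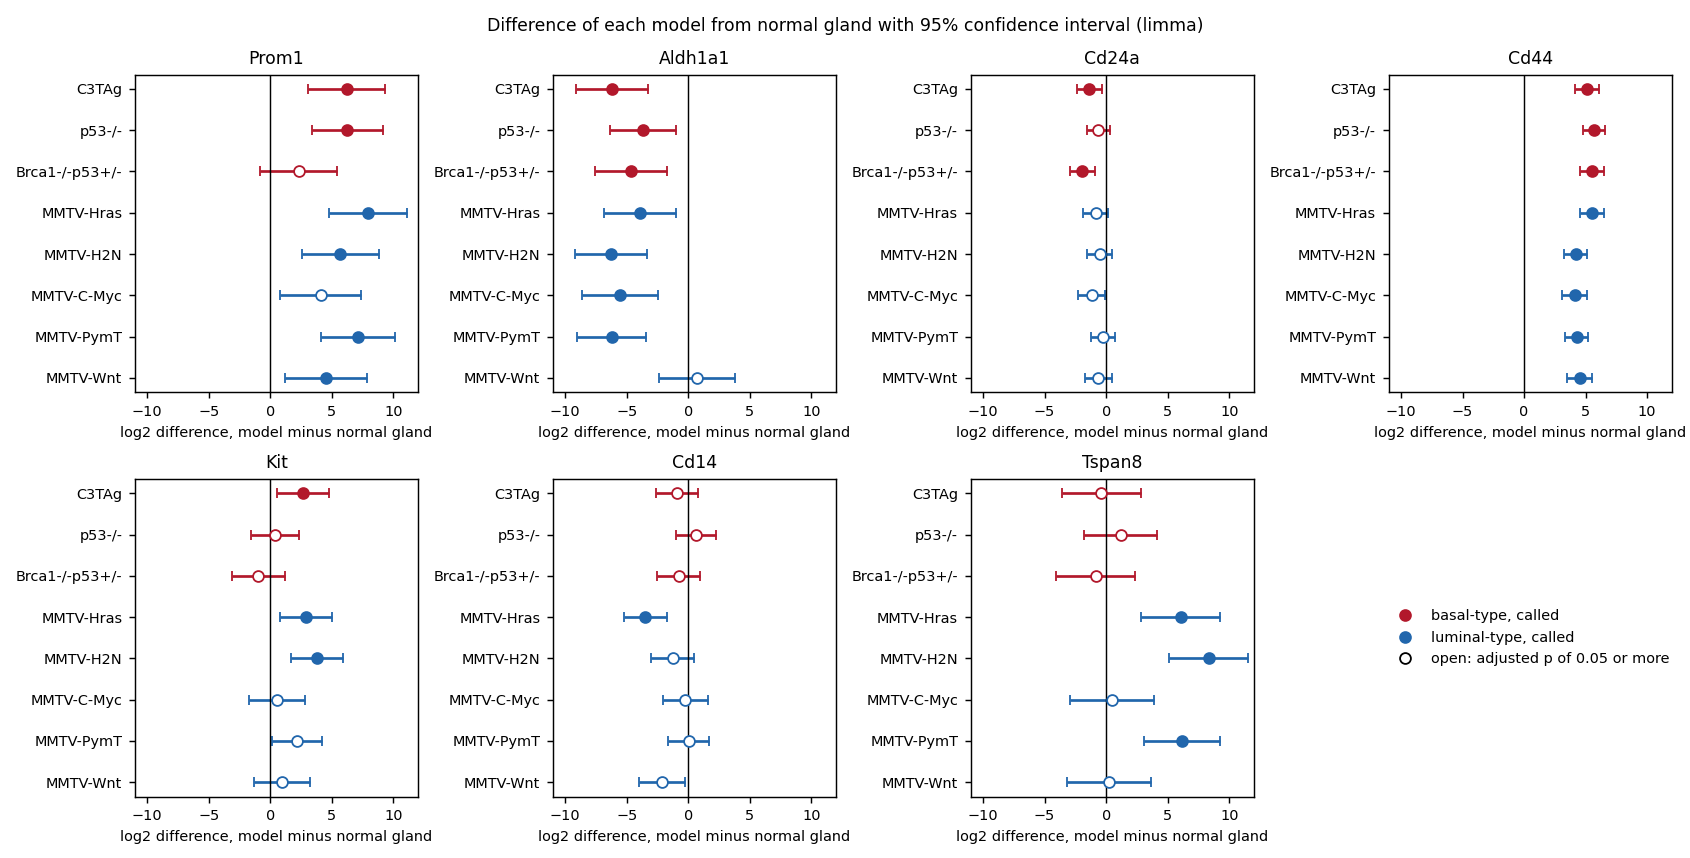
Log2 difference from the 5 normal glands (horizontal axis) of each marker in each of the 8 models, with 95% intervals from limma; filled points were called at an adjusted p under 0.05. Cd44 was higher in all 8 models (4.12 to 5.65), Aldh1a1 lower in 7, Prom1 higher in 6, and Kit and Tspan8 higher in 3 each.

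Kit encodes the receptor tyrosine kinase for stem cell factor. It was highest in MMTV-H2N tumors, which lay within a narrow range (12.52, 12.77, 12.72, 12.59 and 13.00). Normal glands measured 9.03, 8.66, 8.45, 8.61 and 9.86. MMTV-Hras tumors were at 11.30, 11.33, 12.36, 11.91 and 12.15, all above the glands like those of MMTV-H2N. C3TAg tumors were at 12.50, 12.69, 11.33, 11.61 and 9.68, of which the last fell within the range of the glands.

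The lowest Kit levels were again in arrays of low Epcam. Brca1-/-p53+/- tumors measured 11.10, 8.52, 4.60, 5.05 and 10.41, and MMTV-Wnt tumors 11.52, 11.73, 4.81 and 11.47. The tumors at 4.60, 5.05 and 4.81 are the 3 of low Epcam. The p53-/- tumors ranged from 6.73 to 12.68 with a median of 8.97 (n = 7), on both sides of the glands, and MMTV-C-Myc tumors were at 9.56, 8.21, 10.02 and 10.19.

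Kit was higher than in normal gland in MMTV-H2N by 3.80 (SE 1.06, adjusted p = 0.00466), in MMTV-Hras by 2.89 (adjusted p = 0.0366) and in C3TAg by 2.64 (adjusted p = 0.0370). MMTV-PymT tumors were all above the glands (10.32 to 11.81), but the difference of 2.15 was not called (adjusted p = 0.101). Over the 8 models the difference was 1.55 (95% interval -0.05 to 3.16, adjusted p = 0.115). It was 1.76 without MMTV-Wnt 3 (adjusted p = 0.0319) and 2.02 without the 3 tumors of low Epcam (adjusted p = 0.00206), so the call over all models rests on whether these arrays are included. The C3TAg call was lost without C3TAg 1, 2, 3 or 4 or normal gland 1, 2, 3 or 4 (adjusted p up to 0.0860), and the MMTV-Hras call without MMTV-Hras 3, 4 or 5 or the same glands (adjusted p up to 0.0727).

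Against the other 7 models, Kit was 2.57 higher in MMTV-H2N (adjusted p = 0.0162, background 25.2%) and 2.90 lower in Brca1-/-p53+/- tumors (log2 difference -2.90, adjusted p = 0.0104, background 18.6%). Without the tumors of low Epcam the difference of Brca1-/-p53+/- was -1.07 (adjusted p = 0.279), and its call was also lost without Brca1-/-p53+/- 3 or 4 alone (adjusted p up to 0.0845). Mast cells carry Kit, and of 9 mast cell genes listed 2 were measured. Their summed level was 3.24 to 3.49 in MMTV-H2N and 3.48 to 7.64 in normal gland, and the mast cell protease gene Cpa3 was at background in MMTV-H2N (2.07 to 2.13). The part of mast cells in the Kit values was not tested.

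Cd14 encodes the co-receptor that hands lipopolysaccharide to Toll-like receptor 4. It was high in most samples and had its lowest group mean in MMTV-Hras. Normal glands measured 11.63, 10.94, 10.28, 12.49 and 11.50. MMTV-Hras tumors were at 3.17, 8.95, 10.32, 8.45 and 8.49, of which 4 lay below all glands and MMTV-Hras 3, at 10.32, lay within their range. MMTV-Wnt tumors were at 6.39, 8.74, 11.37 and 10.42, of which 2 lay below all glands. The p53-/- tumors were highest, from 10.53 to 13.56 with a median of 11.86 (n = 7).

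The difference of MMTV-Hras from normal gland was -3.49 (SE 0.86, adjusted p = 0.00200), an 11.2-fold lower level, and it was the only call of Cd14 among the 8 models. Without MMTV-Hras 1 it was -2.31 (adjusted p = 0.0154). Over all models the difference was -1.02 (95% interval -2.32 to 0.28, adjusted p = 0.209). Against the other 7 models Cd14 was lower in MMTV-Hras (-2.82, adjusted p = 0.00155, background 24.4%), or -1.65 without MMTV-Hras 1 (adjusted p = 0.0413). It was higher in p53-/- (1.87, adjusted p = 0.0189), and this call was lost without p53-/- 5 (1.61, adjusted p = 0.0662). Taken pair by pair, Cd14 in MMTV-Hras was not called against MMTV-Wnt (-1.35, adjusted p = 0.331) or MMTV-H2N (-2.22, adjusted p = 0.0724). Against each of the remaining models it was called lower.

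Of the 12 macrophage genes, 0 were called higher and 0 lower in MMTV-Hras against the other models, at a summed level of 12.5 to 15.0. In p53-/- 1 of 12 was higher. Neutrophils express Cd14 too, and 4 of 9 neutrophil genes were measured. Their summed level was 5.61 to 8.49 in MMTV-Hras, 8.99 to 13.4 in p53-/- and 6.67 to 8.33 in normal gland, and 2 of the 4 were higher in p53-/- than in the other models, among them S100a9 (3.14, adjusted p = 0.0141). MMTV-H2N tumors had the lowest neutrophil levels (5.14 to 7.33), with Cd14 at 11.02, 9.87, 8.65, 9.99 and 10.94. The part of neutrophils in the p53-/- and MMTV-Hras values was not tested.

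Tspan8 encodes a tetraspanin, a membrane protein that organizes adhesion receptors. It had the widest range of group means of the 7 markers, 9.16 on the log2 scale. MMTV-H2N tumors were high and nearly equal (12.68, 12.74, 12.51, 12.62 and 12.61). MMTV-Hras tumors were at 10.38, 10.63, 11.42, 12.60 and 6.78, and MMTV-PymT tumors ranged from 8.58 to 11.71 with a median of 10.83 (n = 6). Normal glands measured 5.52, 2.45, 2.33, 5.33 and 5.93, below every tumor of these 3 models.

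In the other 5 models most tumors were near background and a few were high. The p53-/- tumors measured 2.84, 2.85, 2.15, 2.33, 12.67, 10.99 and 4.65, so that 2 of 7 reached the level of MMTV-H2N or MMTV-PymT. C3TAg tumors were at 2.15, 2.63, 2.20, 8.73 and 3.92. MMTV-C-Myc tumors were at 6.57, 8.04, 2.20 and 2.33. MMTV-Wnt tumors were at 5.21, 2.85, 2.18 and 8.03 and Brca1-/-p53+/- tumors at 2.81, 7.18, 2.26, 2.29 and 2.81. All of these groups overlapped the glands.

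Tspan8 was higher than in normal gland by 8.32 in MMTV-H2N (SE 1.59, adjusted p = 8.56e-05), 6.19 in MMTV-PymT (adjusted p = 0.00172) and 6.05 in MMTV-Hras (adjusted p = 0.00364). The other models differed by -0.84 to 1.19 and were not called, and the difference over all models was 2.66 (SE 1.19, adjusted p = 0.0707). Against the other 7 models MMTV-H2N was 88.9-fold higher (log2 difference 6.47, adjusted p = 0.000111), and MMTV-PymT (4.04, adjusted p = 0.0105, background 17.8%) and MMTV-Hras (3.88, adjusted p = 0.0162) were also called. Brca1-/-p53+/- (-3.99, adjusted p = 0.0179) and C3TAg (-3.48, adjusted p = 0.0262, background 28.9%) were lower. The last 3 calls depended on single arrays. They were lost without MMTV-Hras 3 or 4 (adjusted p up to 0.0672), without Brca1-/-p53+/- 1, 3 or 4 (up to 0.0637), and without C3TAg 1, 2, 3 or 5 (up to 0.0986). Brca1-/-p53+/- was not called without the tumors of low Epcam either (-3.31, adjusted p = 0.133).

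In the models of high Tspan8 the salivary gene Prol1, named after its values were seen, was above its range in normal gland. Prol1 was at 7.35 to 15.3 in MMTV-Hras, 7.16 to 13.7 in MMTV-H2N and 6.47 to 14.2 in MMTV-PymT, against 2.28 to 5.61 in normal gland. It also reached above the glands in Brca1-/-p53+/- (2.25 to 8.48) and MMTV-C-Myc (2.25 to 9.91). In MMTV-Wnt, C3TAg and p53-/- it was 2.17 to 2.81. The whole salivary list did not follow Prol1. Its summed level had a median of 16.7 in MMTV-Hras, 11.1 in MMTV-PymT and 9.26 in MMTV-H2N, against 11.4 in normal gland. The summed salivary level of MMTV-H2N was 7.51 to 13.7, against 9.75 to 11.5 in normal gland. In models where Tspan8 was not called against normal gland, it was 5.07 to 15.4 in MMTV-Wnt and 5.19 to 13.4 in Brca1-/-p53+/-. It was 5.57 to 12.4 in MMTV-C-Myc, 5.06 to 7.85 in p53-/- and 5.17 to 5.87 in C3TAg. The part of salivary tissue in the Tspan8 values was not tested.

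Brca1-/-p53+/- tumors were the model with most markers called against the other models, 4 of 7, all lower (background 18.6%): Prom1 (-3.69, adjusted p = 0.0246), Cd24a (-1.17, adjusted p = 0.0288), Kit and Tspan8. Epithelial genes moved with these. Of 10 epithelial genes 8 were lower and 0 higher in the same comparison, with a summed level of 10.8 to 15.8 against 14.9 to 17.1 in the tumors of the other models except MMTV-Wnt (13.9 to 16.3), and 9 of 10 fibroblast and matrix genes were higher. Without the 3 tumors of low Epcam none of the 4 markers was called, with Prom1 at -1.35 (adjusted p = 0.452) and Cd24a at -0.45 (adjusted p = 0.379). Without Brca1-/-p53+/- 2 as well, Prom1 was at -0.50 (adjusted p = 0.913), Kit at -0.32 (adjusted p = 0.900) and Cd24a at 0.057 (adjusted p = 0.972), so that Cd24a turned in direction. The Prom1 call was also lost without Brca1-/-p53+/- 3 or 4 alone (adjusted p up to 0.145) and the Cd24a call without Brca1-/-p53+/- 2 or 4 alone (adjusted p up to 0.434). In all, 13 of 56 marker and model pairs were called against the other models (background 18.4%), and MMTV-C-Myc had 0 of 7 (background 9.52%).

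Basal-type and luminal-type tumors were compared as pooled classes. Cd44 was 1.90-fold higher in basal-type tumors (12.07 ± 0.79 against 11.14 ± 0.89, SD, log2 difference 0.93, SE 0.27, adjusted p = 0.00875). Tspan8 was 23.2-fold lower (4.44 ± 3.35 against 8.97 ± 3.68, log2 difference -4.53, SE 1.09, adjusted p = 0.00220). Kit was lower (-1.54, SE 0.65) but not called (adjusted p = 0.0705), as were Cd14 (1.13, adjusted p = 0.111), Cd24a (-0.59, adjusted p = 0.112), Prom1 (-0.98, 95% interval -2.81 to 0.85, adjusted p = 0.433) and Aldh1a1 (-0.21, 95% interval -2.13 to 1.71, adjusted p = 0.890). Thus 2 of 7 markers were called, 1 in each direction, against 27.9% of all genes (15.9% higher and 12% lower). With the models of a class weighted equally 3 of 7 were called (background 37.5%), Kit being added (-1.40, adjusted p = 0.0375). The Kit difference also passed the threshold without C3TAg 1, C3TAg 2, MMTV-C-Myc 2, p53-/- 7 or MMTV-Wnt 3, where it reached -1.82 (adjusted p = 0.0156).

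The class test takes each tumor as independent, but tumors of the same model resembled each other (correlation within a model 0.313). With the model as a random block Cd44 (0.91, adjusted p = 0.289) and Tspan8 (-4.37, adjusted p = 0.163) were not called. Strain moved with class, since p53-/- and Brca1-/-p53+/- were the only groups not of FVB strain. Among FVB arrays alone C3TAg (n = 5) was the only basal-type model, so class and model cannot be told apart there. In that setting Tspan8 was called and Cd44 was not (0.59, adjusted p = 0.289), and Prom1 (0.15) and Kit (0.45) turned in direction. High Tspan8 was not shared by all luminal-type models, since MMTV-C-Myc and MMTV-Wnt means (4.79 and 4.57) lay close to that of C3TAg (3.93). Fibroblast and matrix genes moved with class, since 8 of 10 were called higher in the basal-type class and 0 lower, and 4 of 7 salivary genes were lower. Their part in the class differences was not tested.

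All 7 markers differed among the 9 groups in an F test over the groups, as did 83.2% of all genes. Cd44 had the largest F (27.3, adjusted p = 1.43e-11), above that of 99.5% of genes, followed by Tspan8 (9.70, adjusted p = 2.09e-06), and Cd24a had the smallest (2.81, adjusted p = 0.0193), above that of 25.7%. The F of Aldh1a1 was 6.22 (adjusted p = 0.000109), and 10.6 without MMTV-Wnt 3. Ordered by group mean, few neighbours differed. Of the 56 steps between neighbouring groups only 3 were called (2.07% over all genes). These were the steps from MMTV-C-Myc down to normal gland in Cd44 (4.12, adjusted p = 8.65e-08), from MMTV-Hras down to p53-/- in Tspan8 (4.86, adjusted p = 0.0121), and from normal gland down to p53-/- in Aldh1a1 (3.68, adjusted p = 0.0246).

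The order of means itself differed from marker to marker. Prom1 went from MMTV-Hras (11.76 ± 0.87) through MMTV-PymT (10.97), p53-/- (10.09), C3TAg (10.04), MMTV-H2N (9.52), MMTV-Wnt (8.38), MMTV-C-Myc (7.91) and Brca1-/-p53+/- (6.12) to normal gland (3.82 ± 1.21). Aldh1a1 went from MMTV-Wnt (9.22 ± 4.71) and normal gland (8.50 ± 0.70) to p53-/- (4.83), MMTV-Hras (4.56), Brca1-/-p53+/- (3.88), MMTV-C-Myc (2.96), C3TAg (2.31), MMTV-PymT (2.29) and MMTV-H2N (2.21). No step was called in the order of Prom1. In that of Aldh1a1 only the step from normal gland down to p53-/- was called, and the step from MMTV-Wnt to normal gland was not (adjusted p = 0.780).

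For Cd24a the order was normal gland (13.99 ± 0.41), MMTV-PymT (13.75), MMTV-H2N (13.45), p53-/- (13.35), MMTV-Wnt (13.34), MMTV-Hras (13.14), MMTV-C-Myc (12.82), C3TAg (12.63) and Brca1-/-p53+/- (12.04 ± 1.91). Cd44 went from p53-/- (12.26 ± 0.79) through Brca1-/-p53+/- and MMTV-Hras (both 12.12), C3TAg (11.73), MMTV-Wnt (11.13), MMTV-PymT (10.89), MMTV-H2N (10.80) and MMTV-C-Myc (10.73) to normal gland (6.61 ± 0.37). Normal gland thus lay at opposite ends for these adhesion proteins.

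Kit went from MMTV-H2N (12.72 ± 0.18) through MMTV-Hras (11.81), C3TAg (11.56), MMTV-PymT (11.07), MMTV-Wnt (9.88), MMTV-C-Myc (9.49), p53-/- (9.31) and normal gland (8.92) to Brca1-/-p53+/- (7.94 ± 3.00). Cd14 went from p53-/- (11.99 ± 0.94) through MMTV-PymT (11.41), normal gland (11.37), MMTV-C-Myc (11.14), Brca1-/-p53+/- (10.60), C3TAg (10.44), MMTV-H2N (10.09) and MMTV-Wnt (9.23) to MMTV-Hras (7.88 ± 2.74). Over all pairs of groups, called pairs numbered 18 of 36 for Tspan8, 14 for Aldh1a1, 13 for Cd44, 10 for Kit, 8 for Prom1, 7 for Cd14 and 4 for Cd24a, against 22.2% over all genes.

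**Figure D4:**
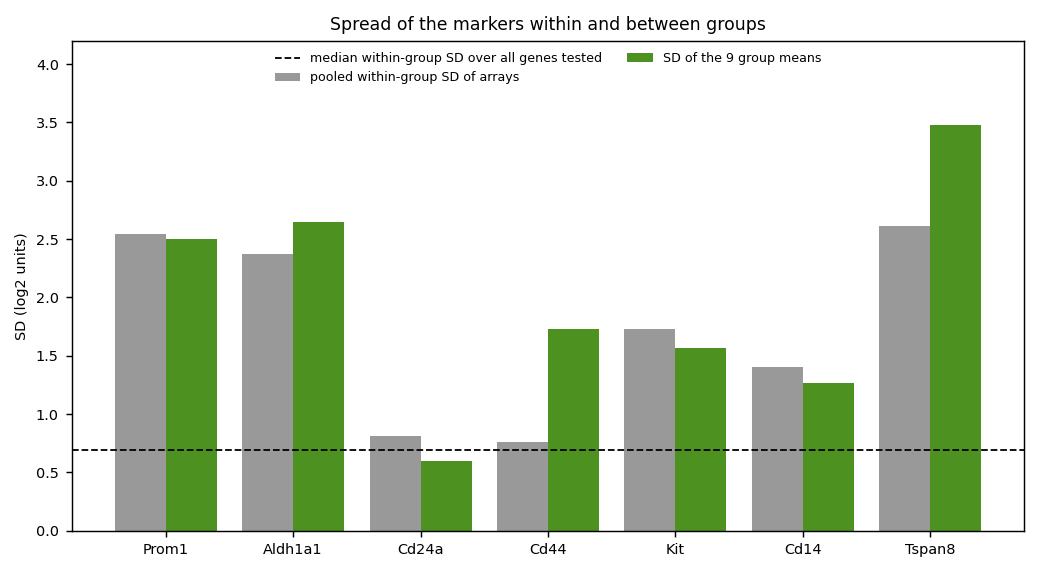
SD of log2 values within groups (pooled over the 9 groups, grey) and SD of the 9 group means (green) for each marker, with the median within-group SD of all genes (0.69) as a dashed line. Cd44 had a spread between groups 2.27 times that within groups, while Prom1 had both at about 2.5.

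The markers differed in how much tumors of the same model varied. The pooled within-group SD of Tspan8 was 2.61, of Prom1 2.55 and of Aldh1a1 2.38, above those of 99.5%, 99.4% and 99.0% of genes, where the median gene had 0.69. Kit (1.73) and Cd14 (1.40) were in between. Cd24a (0.81) and Cd44 (0.76) were near the median gene. For Cd44 the SD of the 9 group means was 1.73, 2.27 times the spread within groups. For Prom1 (2.50), Kit (1.57), Cd14 (1.27) and Cd24a (0.60) the group means spread no more than arrays within a group did. MMTV-H2N tumors had the smallest SD of the 9 groups for 4 markers, 0.087 for Tspan8, 0.092 for Cd24a, 0.18 for Kit and 0.020 for Aldh1a1, which was at background there. C3TAg tumors had the smallest for Cd44 (0.29) and Cd14 (0.38), and MMTV-PymT tumors for Prom1 (0.34).

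In tumors against normal gland and between classes, other probe sets of a marker gave the same direction with other sizes. Single models could change sides. A second probe set of Kit was 3.09 higher in tumors than in normal gland (adjusted p = 0.000558) and 1.75 lower in basal-type tumors (log2 difference -1.75, adjusted p = 0.0243), and both differences were called, unlike those of the probe set used. Its correlation with that probe set was 0.89 over the 46 arrays. It put the mean of Brca1-/-p53+/- (5.95) above that of normal gland (4.61), where the probe set used put it below. The other probe set of Cd44 also differed in both comparisons (4.94, adjusted p = 5.11e-08 and 1.50, adjusted p = 0.0170). For Cd24a the others were at -1.27 (adjusted p = 0.0210) and -1.82 (adjusted p = 0.00347) in tumors against normal gland, and the second of them was also called between classes (-1.23, adjusted p = 0.0131). The 3 other probe sets of Tspan8 were lower in basal-type tumors (-1.83, -2.58 and -2.81, all called). In tumors against normal gland 1 of the 3 was called (2.24, adjusted p = 0.0174). In that probe set MMTV-Wnt (2.00), MMTV-C-Myc (2.07) and C3TAg (2.19) changed sides of normal gland (2.09), all at background. Another put the means of p53-/- (4.07), MMTV-Wnt (3.90) and MMTV-C-Myc (3.66) below that of normal gland (4.38), unlike the probe set used. It also put MMTV-PymT at 5.05, much nearer to normal gland than the probe set used did, with MMTV-Hras at 7.30 and MMTV-H2N at 7.54.

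Levels of the markers were set against those of all genes over the 46 arrays. These correlations across arrays describe shared differences between groups and tissue content and carry no test. In parentheses the first value is r over the 46 arrays and the second is r after the 9 group means were removed. Prom1 was most like the epithelial genes Ddr1 (0.84; 0.78), which encodes a collagen receptor kinase, Dsc2 (0.82; 0.75) and Dsp (0.80; 0.75), both of which encode desmosome proteins. Kit was most like Il17re (0.84; 0.80), the receptor kinase gene Erbb3 (0.82; 0.85) and Shisa2 (0.82; 0.79). Cd24a was most like Plet1 (0.78; 0.77), Stard10 (0.72; 0.63) and Gm16136 (0.69; 0.74). For these 3 markers the likeness remained within groups, with the arrays of low Epcam included. The part of those arrays in it was not tested.

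For the others it was lower within groups. Cd44 was most like Nab2 (0.86; 0.50), the sterol transporter gene Abcg1 (0.83; 0.38) and Ckap4 (0.82; 0.63). Tspan8 was most like Mfsd4a (0.83; 0.57), the glycosyltransferase gene Ugt8a (0.82; 0.66) and 1500002F19Rik (0.80; 0.31). Aldh1a1 was most like Rhov (0.77; 0.59), Egfl6 (0.76; 0.64) and Hoxd8 (0.75; 0.60), and Cd14 like Swap70 (0.72; 0.57), the transglutaminase gene Tgm2 (0.71; 0.55) and Mrpl9 (0.69; 0.57). Among the markers themselves r was highest for Prom1 with Kit (0.61; 0.54) and lowest for Aldh1a1 with Cd44 (-0.43 over the arrays). Prom1 with Cd44 had 0.49, and 0.097 once group means were removed.

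Genes that work with each marker were counted in the same comparisons, in which 41.3% of all genes were called in tumors against normal gland and 27.9% between classes. Counts close to these shares, such as 7 of 17 tetraspanins or 6 of 15 retinoid genes in tumors, say nothing particular about a list. For Cd44, 14 of 18 listed ligands, partners and processing enzymes were measured, and 7 were higher and 1 lower in tumors than in normal gland. The hyaluronan receptor gene Hmmr (2.42, adjusted p = 3.61e-06) and Vcan, which encodes the hyaluronan-binding versican (2.77, adjusted p = 0.0199), were higher, and Lyve1, a hyaluronan receptor gene of lymphatic vessels, was lower (-2.47, adjusted p = 0.00258). In basal-type tumors 4 of 14 were called, all higher, among them Mmp14, which encodes a protease that cleaves CD44 (2.17, adjusted p = 0.00104).

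Around Kit, 11 of 15 genes of its ligand and signalling were measured. In tumors 4 were higher, led by the phosphatase gene Ptpn6 (1.55) and the ubiquitin ligase gene Cbl (1.38), and 2 were lower, the transcription factor genes Stat5a (-2.96, adjusted p = 2.17e-05) and Stat5b (-1.22, adjusted p = 0.000698). Kitl, which encodes the ligand, differed by -0.59 (adjusted p = 0.286). Between classes 6 were called, 3 of them higher in the basal-type class.

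Around Cd14, 13 of 16 genes of the receptor complex and lipopolysaccharide response were measured. Ly96, which encodes the MD-2 subunit of the receptor (-2.68, adjusted p = 0.000259), and Tlr2 (-1.56, adjusted p = 0.00846) were among 3 lower in tumors. The chemokine gene Cxcl1 (3.55, adjusted p = 1.91e-06) and the cytokine gene Il1b (1.63, adjusted p = 0.0203) were the 2 higher. In basal-type tumors 2 of 13 were higher, Il1b (1.99, adjusted p = 0.00252) and Tlr2 (1.13, adjusted p = 0.0151). In p53-/- against the other models 5 were higher and 1 lower.

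Of the retinaldehyde and retinoic acid genes 15 of 19 were measured, with 4 higher and 2 lower in tumors. Aldh1a7, the closest relative of Aldh1a1, fell by 6.25 (adjusted p = 1.45e-07) from 9.28 to 11.7 in normal glands, and the retinol carrier gene Rbp4 fell by 7.37 (adjusted p = 1.15e-06). In MMTV-Wnt tumors Aldh1a7 was 2.67 to 7.63, below every gland, unlike Aldh1a1. Its highest level in tumors, 10.2, was in Brca1-/-p53+/- 2, the tumor of high Adipoq, and the other 4 tumors of that model were at 2.63 to 2.83. Aldh1a3, which encodes another retinaldehyde dehydrogenase, was higher in basal-type tumors (2.40, adjusted p = 0.00249), with means of 8.02 in C3TAg and 8.18 in p53-/- against 4.87 in normal gland. The mean of the third basal-type model, Brca1-/-p53+/-, was 5.15, below that of luminal-type MMTV-Wnt (6.69). In C3TAg tumors Aldh1a1 was at background. Of the tetraspanins 17 of 20 were measured, with 5 higher and 2 lower in tumors and with 2 higher and 5 lower between classes (basal-type minus luminal-type). Tspan9 was higher in both comparisons (2.86, adjusted p = 5.69e-06 and 1.69, adjusted p = 0.000621), opposite to Tspan8 between classes, and Tspan15 (-2.24, adjusted p = 0.00627) and Tspan12 (-1.73, adjusted p = 0.00371) were lower in basal-type tumors like Tspan8.

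Of 10 genes of prominin and the apical membrane 7 were measured. Prom2, the paralog of Prom1, was higher in tumors (2.89, adjusted p = 0.00489), as was Cd9 (1.37, adjusted p = 6.33e-05), and the mucin gene Muc1 was lower (-4.49, adjusted p = 6.97e-08). Muc1 was higher in basal-type tumors (2.51, adjusted p = 0.00466). Of 14 CD24 ligands and glycosylphosphatidylinositol-anchored proteins 9 were measured. In tumors 4 of them were lower, led by Art3 (-4.85) and the folate receptor gene Folr1 (-4.74), and 1, Ly6d (3.52), was higher. In basal-type tumors Thy1 (2.55) and the urokinase receptor gene Plaur (1.88) were higher and Folr1 (-3.98) and the complement regulator gene Cd55 (-2.40) lower.

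Other markers of mammary cell types were counted beside the 7. Of 13 measured luminal progenitor and alveolar genes, of 15 listed, 5 were higher and 0 lower in tumors, among them the Notch target gene Hey1 (3.77, adjusted p = 0.00156) and Cxcl1. Of 16 basal and myoepithelial genes 7 were lower, 3 higher and 6 not called, with the smooth muscle genes Myh11 (-5.91) and Cnn1 (-5.41) the lowest. Of 9 mature luminal genes 2 were higher and 1 lower. All 12 milk and secretory genes were lower in tumors. Between classes the luminal progenitor list had 2 higher and 2 lower, with the alveolar transcription factor gene Elf5 lower in basal-type tumors (-3.05, adjusted p = 0.0102) and Aldh1a3 higher.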

How the data were processed

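Total RNA of 41 primary mammary tumors and 5 normal glands was hybridized by the study to Affymetrix mouse arrays after mirVana extraction and One Cycle labelling, and GCOS was used to scan. From the scans the authors made GC-RMA values with Partek, removed probe sets with MAS5 present or marginal calls in fewer than 3 samples, and deposited the rest on the log2 scale. No version of these tools, build of the probe sets, scan date or batch was given in the sources used here. GC-RMA corrects each probe for background by its GC content, normalizes arrays to each other and pulls unexpressed probe sets to about 2, so that folds from that level depend on the floor (22.3% of values were under 3).

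The table held 18586 probe sets with 0 missing values between 1.70 and 15.98, and 0 columns of other samples. Array medians were 6.48 to 7.48. Precision is limited by the 4 to 7 arrays of a group, since arrays have no read depth. By the platform annotation 16962 probe sets named 1 gene, 569 several and 1055 none, and the RefSeq table held the gene ID of 16941 of the first and gave their symbols. A probe set was kept at a log2 value over 4 in at least 3 arrays (16154 probe sets), and for each gene the one with the highest mean was used (9329 genes). Groups came from the sample titles. Per the methods tumors came from individual mice. Whether each gland came from a separate mouse is not stated in the sources used here. The p values measure only the spread between these samples.

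Tests were run with limma 3.58.1 in R 4.3.3 (lmFit, eBayes, 37 residual degrees of freedom) on log2 values in a fit of the 9 groups: an F test, all models weighted equally against normal gland, each model against normal gland and against the other 7 models, all pairs of groups, and basal-type against luminal-type tumors pooled over 41 tumors. Benjamini-Hochberg adjustment was done within a comparison over all genes, at a threshold of 0.05 with no minimum fold. No overlap means that every tumor of a model lay on the same side of every gland. A list's summed level is the log2 of the sum of its genes' linear values, and statmod 1.5.0 served the random block. The fits were tested on simulated data. Figures used matplotlib 3.10.9 in Python 3.11.15. The markers, gene lists and comparisons were chosen with earlier results of these data known. Genes named beside the markers were the called genes of each list with the largest differences, up to 2 in each direction, and the 3 genes most like each marker. Cpa3, Kitl, Bpifa2, Prol1, S100a9, Stat5b and Aldh1a3 in the comparison with normal gland were named after their values were seen. Certain genes are not reported here. Alternatives were quantile normalization, median centring, no filter, values under 4 set to 4, trend and robust eBayes, the mean of probe sets, FVB arrays alone, the model as a random block, equal weights, a replicate block and each array left out, and, chosen after seeing the data, tumors of Epcam under 8 or Adipoq over 12 left out.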

Additional observations from a re-analysis of the deposited data

Results flagged for a closer look

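Within groups, 7 of 63 sets of arrays had a highest or lowest value far from the rest by Dixon's criterion. About 1 in 20 sets of independent, normally distributed values meet it by chance. That rate cannot be set against these 7, since the sets share arrays and in several of them all other arrays lay at background. Aldh1a1 was 10.38 in Brca1-/-p53+/- 2 (others 2.16 to 2.42) and 4.94 in MMTV-C-Myc 3 (others 2.23 to 2.39). Tspan8 was 7.18 in Brca1-/-p53+/- 2 (others 2.26 to 2.81) and 8.73 in C3TAg 4 (others 2.15 to 3.92). Low values were Cd24a at 11.34 in MMTV-Hras 4 (others 13.35 to 13.88), Kit at 4.81 in MMTV-Wnt 3 (others 11.47 to 11.73) and Cd14 at 3.17 in MMTV-Hras 1 (others 8.45 to 10.32). Of these arrays, 2 stood apart in tissue markers as well, Brca1-/-p53+/- 2 with high Adipoq and MMTV-Wnt 3 with low Epcam, and the part of tissue content was not tested.

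For 4 markers, models that lay on opposite sides of normal gland differed from each other by limma's test of the difference, and each pair shares the same 5 glands. With all arrays, 1 model of each pair named here was not called against normal gland, so changes in both directions are not shown. It was MMTV-Wnt for Aldh1a1 (adjusted p = 0.780) and p53-/- for Cd14 (adjusted p = 0.554). For Tspan8 and Kit it was Brca1-/-p53+/- (adjusted p = 0.730 and 0.506). Aldh1a1 was 0.72 above normal gland in MMTV-Wnt and 6.29 below it in MMTV-H2N (log2 difference from normal -6.29), a difference of 7.01 between these models (adjusted p = 0.00101), and 7 such pairs of models were called. Tspan8 differed by 9.16 between MMTV-H2N (8.32 from normal) and Brca1-/-p53+/- (-0.84; adjusted p = 4.81e-05), with 6 such pairs. Kit differed by 4.78 between MMTV-H2N (3.80) and Brca1-/-p53+/- (-0.98; adjusted p = 0.000793), with 4 such pairs. Without the tumors of low Epcam, Kit in Brca1-/-p53+/- was 1.09 above normal gland, on the same side as MMTV-H2N, the difference was 2.71 (adjusted p = 0.0132) and 0 pairs on opposite sides were called. Without Brca1-/-p53+/- 2 as well it was 1.96 (adjusted p = 0.142). Under the same removals the Tspan8 difference was 8.36 (adjusted p = 0.00142) and 9.82 (adjusted p = 0.00230), and that of Aldh1a1 was 9.29 under both (adjusted p up to 1.38e-05). Cd14 differed by 4.11 between p53-/- (0.62) and MMTV-Hras (-3.49; adjusted p = 0.000206), with 3 such pairs.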

How the results depend on the processing

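Of 64 results for single markers, 47 kept their direction and their side of the threshold under all alternatives other than leaving out an array, among them the higher Cd44 in each of the 8 models. Between classes 2 markers were called, against 4 with the mean of a gene's probe sets (Cd24a at -0.88 and Kit at -1.64 were added), 3 with equal weights (Kit at -1.40 was added), 1 with FVB arrays alone and 0 when model entered as a random block. With FVB arrays alone, where C3TAg was the only basal-type model, Prom1 was 0.15 and Kit 0.45, the reverse of the main direction. Aldh1a1 between classes, not called, was reversed without MMTV-Wnt 1, 2 or 4 and ran from -0.68 to 0.16 over all arrays left out. Cd24a in Brca1-/-p53+/- against other models was 0.057 without tumors of low Epcam or high Adipoq.

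In tumors against normal gland, FVB arrays alone called 6 markers, with Kit at 2.17 (adjusted p = 0.00423) and Tspan8 at 3.49 (adjusted p = 0.00380). Both were also called with the mean of probe sets (2.32 and 1.76), and Tspan8 with values under 4 set to 4 (2.59, adjusted p = 0.0296). Cd24a lost its call after quantile normalization (-0.93, adjusted p = 0.0501) and with no filter (adjusted p = 0.0523). Median centring called Kit between classes (-1.63, adjusted p = 0.0469) and lost Kit in C3TAg (2.22, adjusted p = 0.0801). Leaving out each array gave counts of 3 to 4 in tumors against normal gland, 25 to 33 in single models, 9 to 14 against the other models, 2 to 3 between classes, 2 to 3 for neighbours and 7 in the F test.

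Same-numbered arrays of different groups did not deviate together (166 pairs, correlations from -0.33 to 0.45, median 0.0018, 23 over 0.1), so the numbers do not pair samples. With the number as a replicate block 7 markers were called in the F test, 3 in tumors against normal gland (Cd24a was lost at -0.91, adjusted p = 0.0509), 31 in single models, 12 against other models, 3 between classes (Kit at -1.80, adjusted p = 0.0415) and 3 for neighbours. No array has a read depth, and markers at the array's background have no resolved order there, as for Aldh1a1 in C3TAg, MMTV-H2N and MMTV-PymT.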
